A study of Mus musculus with 58 samples.

Results

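Synaptic vesicle and SNARE genes were examined in 2 cortical regions of aged *APOE* mice, the entorhinal cortex (EC) and the visual cortex (primary area, PVC). The members were chosen by symbol alone, but under a rule set with earlier results of these data known. They comprise every listed synaptotagmin, syntaxin, VAMP, synapsin, synaptogyrin and SV2 gene, together with *Syp*, *Snap25*, *Snap29*, *Slc17a6*, *Slc17a7* and *Slc32a1*. This gave 55 of the 31246 genes listed, and all 55 stood in both regional tables. The series holds 58 poly(A)+ RNA libraries, with 10 *APOE3/3* and 19 *APOE3/4* males per region. All mice were C57Bl/6, 14 to 15 months old, and carried human *APOE* in place of the mouse gene under the mouse promoter, in both genotypes alike. The same 29 animal numbers appear in the labels of both regions. The value analysed was the authors' mean normalized count per region, the mean over all 29 libraries of read counts divided by size factors. As this mean pools both genotypes, the members are described by region and not by genotype.

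A synaptic vesicle is filled by a transporter for its transmitter, held near the release site by synapsins, and fused with the plasma membrane by SNARE proteins. In fusion, a VAMP on the vesicle zips together with a syntaxin and SNAP-25 on the plasma membrane, and a synaptotagmin that binds calcium triggers the step. Other syntaxins, VAMPs and SNAP-29 serve fusion inside the cell, between endosomes, the Golgi apparatus, autophagosomes and the endoplasmic reticulum. Paralogs of a family are often used by different neurons.

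Each level below is 1 pooled value per region, so no spread between mice, interval or test can be given for any difference, and the depth of single libraries is unknown. The regional tables were also normalized separately. Summed over all genes, the authors' means were 1.83 times higher for the EC, and the median gene stood 1.86-fold higher in the EC table (0.89 on the log2 scale). EC over PVC log2 ratios were therefore centred on that median, taken over the 15642 genes with a mean of at least 10 in both regions. A centred ratio of 0 means that a gene differed between the tables as the median gene did. Where a pair of means is given without its regions, the EC comes first. The middle 50% of all genes lay between −0.14 and 0.16.

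The markers listed for each labelled region had centred ratios on the side of that region. *Reln*, a marker of entorhinal layer II, had means of 18785 (EC) and 3027 (PVC). All 6 limbic cortex markers had positive centred ratios, 4 of them past 1.5-fold. *Rspo1*, a marker of layer 4 of sensory cortex, had means of 29.1 (EC) and 384 (PVC). All 4 layer 4 markers had negative ratios, 3 of them past 1.5-fold. Other tissue also differed. All 5 oligodendrocyte markers were higher in the PVC after centring, between 2.58- and 3.09-fold, and their summed level was 41484 (EC) and 58935 (PVC). Of the 6 hippocampal markers, *Fibcd1* and *C1ql2* were 4.38- and 3.46-fold higher in the EC, *Lct* lay at 0.09 and *Prox1*, on the PVC side, at −0.25, and *Dsp* and *Tdo2* had a mean under 10 in the PVC. Past 1.5-fold were also 3 of 6 excitatory neuron markers (higher in the PVC), 1 of 5 astrocyte markers (*Gfap*, higher in the EC) and 2 of 3 choroid plexus markers (1 in each direction), but 0 of 5 microglial and 0 of 5 endothelial markers. No marker of any list was listed at 0 in either region. Their part in the values below was not tested, and in bulk tissue fewer cells of a type and less RNA per cell cannot be told apart.

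The levels of the members ranged widely. Per kilobase (kb) of annotated exon, the highest members in the EC were *Slc17a7* at 26500, *Snap25* at 16570, *Vamp2* at 14631 and *Syt1* at 10903 normalized counts per kb. In the PVC the same 4 genes led, with *Snap25* at 13055 and *Slc17a7* at 12969, followed by *Vamp2* at 7596 and *Syt1* at 6937. These are the vesicular glutamate transporter VGLUT1, the SNAP-25 and VAMP parts of the neuronal SNARE complex, and its main calcium sensor. The lead of *Slc17a7* over *Snap25* in the EC rests on the length used, as with coding length *Snap25* came first and *Slc17a7* stood behind *Vamp2* and *Syt1* in both regions. At the other end, *Syt8*, *Syngr4* and *Stx11* had means under 10 in both regions, and *Vamp7* was listed at 0 in both, so 51 members entered the comparison of regions. *Vamp7* is also the member whose symbol was not found in the annotation used for lengths, and whether its 0 means that the RNA was absent was not tested. Together the 55 members held 1.58% of the summed means in the EC and 1.67% in the PVC.

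**Figure D1:**
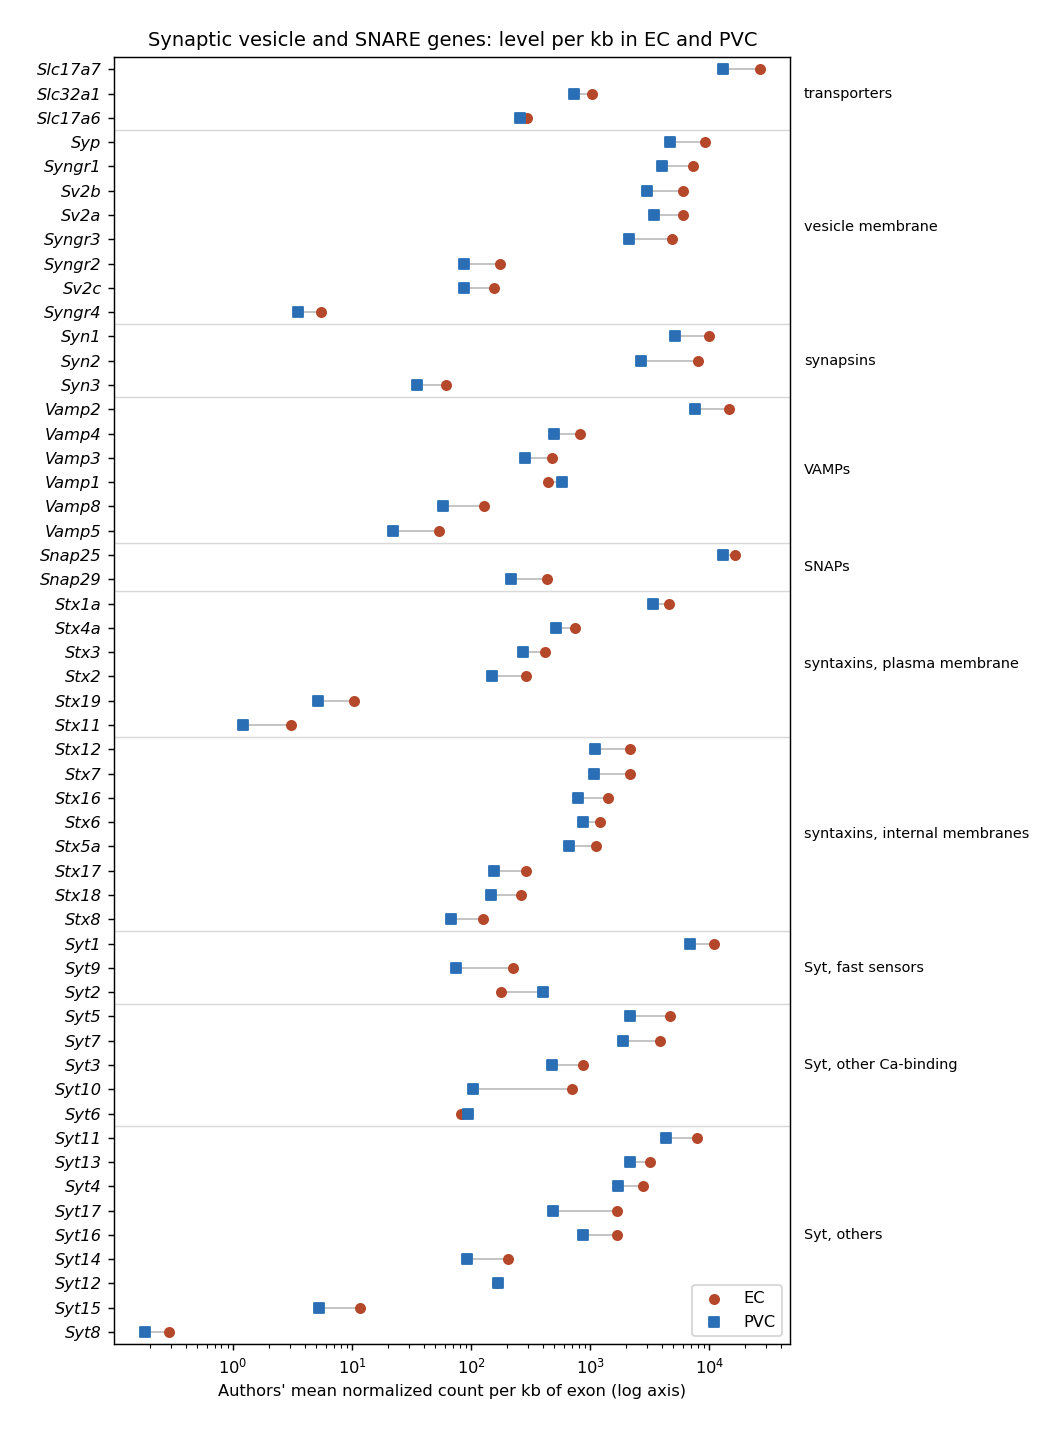
Level of 53 members in normalized counts per kb of exon on a log axis, circles for the EC and squares for the PVC, each point a pooled mean of 29 libraries without an error. Most circles lie right of their squares as the EC table stood 1.86-fold higher for the median gene. *Vamp1*, *Syt2*, *Syt6* and *Syt12* show the opposite order, and *Vamp7*, which has no length, is not drawn.

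The median of the members lay close to that of all genes. Their median centred log2 ratio was −0.02, against 0.00 for all genes, with 24 positive and 27 negative values. The centred ratio was at least 1.5-fold for 9 of the 51 members (17.6%), beside 12.2% of all genes. Of these, 4 were higher in the EC, where the share of all genes was 6.78%, and 5 were higher in the PVC, where it was 5.38%. The order of the means, not divided by length, was nearly the same in both regions (Spearman rho 0.973 across the 51 members). The members are not replicates and share the libraries of each region, and no such value was computed for all genes. The exceptions lay mostly among the synaptotagmins, with 6 of 16 past 1.5-fold, while 3 of the 35 other members were. Just past that limit, at 0.58 on the log2 scale, were *Syn2* at 0.67 and *Slc17a6* at −0.68, and just within it were *Snap25* at −0.55 and *Stx1a* at −0.45. At 2-fold, *Syt10* remained on the EC side, with *Syt2*, *Vamp1* and *Syt6* on the PVC side, beside 2.66% of all genes for the EC side, 2.12% for the PVC side and 4.78% for both.

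**Figure D2:**
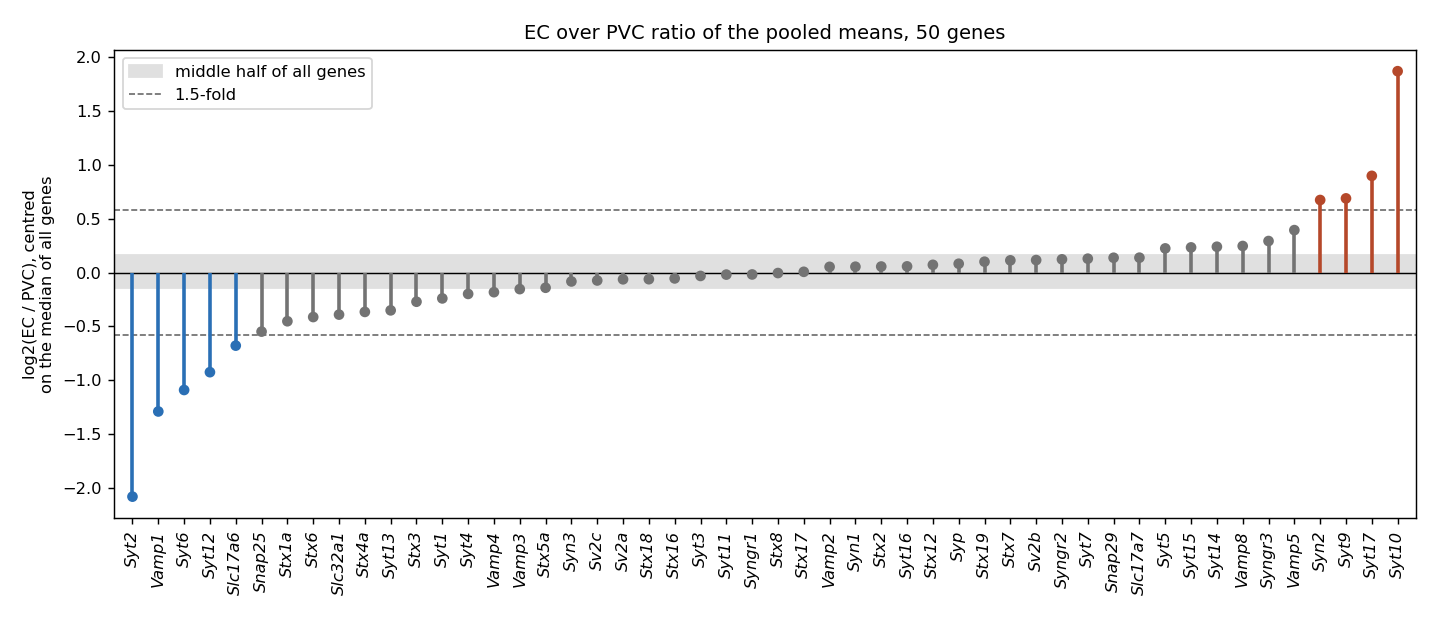
Centred log2 EC over PVC ratio of 50 members with a mean of at least 10 in both regions, ordered by value, with dashed lines at 1.5-fold and a grey band for the middle 50% of all genes. The bars run from −2.08 for *Syt2* to 1.87 for *Syt10*, and 41 of these 50 lie within the dashed lines.

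On the NCBIM37 genome, the 9 members past 1.5-fold have these positions. Those higher in the EC are *Syt10* at chr15:89612824-89672291, *Syt17* at chr7:125525370-125587066, *Syt9* at chr7:114514242-114692170 and *Syn2* at chr6:115084920-115232644. Those higher in the PVC are *Syt2* at chr1:136605877-136649726, *Vamp1* at chr6:125165569-125194561, *Syt6* at chr3:103379154-103449490, *Syt12* at chr19:4445908-4477447 and *Slc17a6* at chr7:58877200-58926495.

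The promoters of the members with the strongest regional contrast, *Syt2*, *Vamp1* and *Syt10*, are shown with those of *Syn1* and *Syn2*, paralogs that differed in their regional ratio. Each is the 250 bases before a RefSeq transcription start, placed by exact match on the NCBIM37 genome at chr1:136605627-136605876 on the plus strand for *Syt2*, chr6:125165349-125165598 on the plus strand for *Vamp1*, chr15:89672292-89672541 on the minus strand for *Syt10*, chrX:20498045-20498294 on the minus strand for *Syn1* and chr6:115084670-115084919 on the plus strand for *Syn2*. Capitals mark matches, on either strand, to TGACGTCA (the cAMP response element), TTCAGCACC (the left part of the element bound by REST, a repressor of neuronal genes), GGGCGG (the GC box), TATAAA (the TATA box) and CACGTG (an E-box).
Syt2: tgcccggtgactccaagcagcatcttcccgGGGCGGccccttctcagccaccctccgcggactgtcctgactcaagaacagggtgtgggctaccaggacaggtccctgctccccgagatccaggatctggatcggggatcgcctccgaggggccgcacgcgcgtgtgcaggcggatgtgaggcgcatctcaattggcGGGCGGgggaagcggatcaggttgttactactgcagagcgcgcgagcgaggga
Vamp1: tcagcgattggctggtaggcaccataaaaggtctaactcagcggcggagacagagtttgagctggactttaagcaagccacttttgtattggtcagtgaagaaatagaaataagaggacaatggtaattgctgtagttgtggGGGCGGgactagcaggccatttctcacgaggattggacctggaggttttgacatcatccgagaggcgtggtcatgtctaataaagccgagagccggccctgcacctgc
Syt10: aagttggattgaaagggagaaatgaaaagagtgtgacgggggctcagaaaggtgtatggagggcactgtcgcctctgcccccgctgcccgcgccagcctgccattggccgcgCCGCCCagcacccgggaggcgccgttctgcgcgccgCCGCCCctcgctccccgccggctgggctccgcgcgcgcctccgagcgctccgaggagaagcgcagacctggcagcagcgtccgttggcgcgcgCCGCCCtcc
Syn1: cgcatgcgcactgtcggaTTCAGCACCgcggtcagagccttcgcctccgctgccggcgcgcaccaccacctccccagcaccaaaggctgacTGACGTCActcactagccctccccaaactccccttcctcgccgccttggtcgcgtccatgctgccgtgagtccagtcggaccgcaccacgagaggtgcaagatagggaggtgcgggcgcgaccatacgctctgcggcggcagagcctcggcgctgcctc
Syn2: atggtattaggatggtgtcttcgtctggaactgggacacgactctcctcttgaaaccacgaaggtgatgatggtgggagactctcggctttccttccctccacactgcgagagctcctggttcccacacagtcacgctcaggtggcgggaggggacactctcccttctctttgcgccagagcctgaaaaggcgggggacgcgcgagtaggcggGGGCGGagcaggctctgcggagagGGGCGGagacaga

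*Syt10* held 3 GC boxes in this window, *Syt2* and *Syn2*, whose regional ratios had opposite signs, held 2 each, and *Vamp1* held 1. *Syn1* held none, but had the partial REST element 232 bases and the cAMP response element 159 bases before its start. The table held promoters for 41 of the 55 members, and a GC box stood in 57.9% of their 57 windows, against 32.7% of all 32851 windows. The members' windows were also richer in G and C, with a median of 60%, against 52.4% for all windows. The part of this base content in the motif shares was not tested. The partial REST element and the cAMP response element were found in *Syn1* and in no other member with a window. Each stood in 1 of the members' 57 windows (1.75%), against 0.301% and 1.55% of all windows. The TATA box was found in 7.02% of the members' windows and 12.4% of all windows, and the E-box in 10.5% and 6.02%. *Syt2* and *Syn2* have a second start in the table, and the start nearest to that of the annotated gene is shown. The motifs do not overlap one another in letters, and a match is only a description of these bases.

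Among the vesicular transporters, *Slc17a7* (VGLUT1, glutamate, the main form of cortical neurons) had means of 77884 (EC) and 38116 (PVC). Its centred log2 ratio of 0.14 lay within the middle 50% of all genes. *Slc17a6* (VGLUT2, glutamate, used by thalamic and some cortical neurons) had means of 1283 (EC) and 1106 (PVC), which after centring was 1.60-fold higher in the PVC, while the means as deposited have the opposite direction. Per kb, *Slc17a6* made up 1.11% (EC) and 1.94% (PVC) of the sum of both VGLUT genes, a comparison that needs no scaling between the tables. Of the 5 thalamic markers, 3 were past 1.5-fold and higher in the PVC, while *Prkcd* lay at −0.30 and *Calb2*, on the EC side, at 0.38. The summed level of all 5 was 2599 (EC) and 1647 (PVC) as deposited, which after centring was 1.18-fold higher in the PVC. The part of these markers in the *Slc17a6* value was not tested. *Slc32a1* (VGAT, which loads GABA and glycine) had means of 2927 (EC) and 2067 (PVC), a centred log2 ratio of −0.39. It shares 24.8% of its exon bases with *Gm14205*, an antisense gene, and reads from shared bases cannot be told apart in these libraries, whose kit does not mark strand.

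The 7 general membrane proteins of the vesicle with a mean of at least 10 had ratios between −0.07 and 0.29, with a median of 0.08. None was past 1.5-fold, which with 12.2% of all genes past it is near the background for so few genes. *Syp* (synaptophysin, a standard marker of synapses) had means of 47754 (EC) and 24302 (PVC), a centred log2 ratio of 0.08. An antisense gene, *Gm14703*, covers 16.8% of the *Syp* exon bases. *Sv2a*, the binding site of the antiepileptic levetiracetam, had means of 28080 (EC) and 15797 (PVC). *Sv2b*, its paralog, had means of 34643 and 17220. Per kb both were near equal in the EC, with 49.3% and 49.4% of the SV2 total, and in the PVC *Sv2a* held 52.3% and *Sv2b* 46.3%. With coding length *Sv2b* led in both, at 56.7% and 53.6%. *Sv2c*, the form known from the basal ganglia, was the scarce paralog, with means of 677 and 384 and a share of 1.26% (EC) and 1.34% (PVC). Of the synaptogyrins, which are relatives of synaptophysin, *Syngr1* was the highest per kb in both regions, at 7354 and 4010 normalized counts per kb. *Syngr3*, a neuronal form, had the largest ratio of the group, with means of 9982 and 4389 and a centred value of 0.29.

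The synapsins, which tether vesicles to actin and to each other, differed among themselves. *Syn1* had means of 33070 (EC) and 17154 (PVC), a centred log2 ratio of 0.05. *Syn2* had means of 45479 (EC) and 15353 (PVC), which was 1.60-fold higher in the EC after centring. *Syn3*, the third synapsin, had means of 759 and 433, a ratio of −0.08. *Syn2* was thus the synapsin that stood apart, and it held 44.2% of the synapsin total per kb of exon in the EC and 33.98% in the PVC. Per kb of exon *Syn1* was 1.26 times (EC) and 1.93 times (PVC) the level of *Syn2*. Per kb of coding sequence these values were 0.637 and 0.979, so the order of both genes depends on the length used, while the regional difference between them, 1.54-fold, does not. *Syn3* shares 14.1% of its exon bases with *Timp3* on the opposite strand.

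Of the VAMPs, *Vamp2* (synaptobrevin 2, the vesicle SNARE of most forebrain synapses) had means of 55730 (EC) and 28933 (PVC). Its centred log2 ratio was 0.05. *Vamp1* (synaptobrevin 1, abundant in the spinal cord, brainstem and fast-spiking neurons) had means of 3843 (EC) and 5064 (PVC), higher in the PVC even before centring and 2.45-fold higher after it. Per kb of exon *Vamp1* made up 2.92% of the *Vamp1* and *Vamp2* total in the EC and 7.08% in the PVC, 2.54-fold more relative to *Vamp2*. With coding length these shares were 6.06% and 14.1%, at the same fold. The VAMPs of endosomal and constitutive traffic were more even, with *Vamp3* at −0.15, *Vamp4* at −0.18, *Vamp8* at 0.25 and *Vamp5* at 0.39. *Vamp5*, known from muscle, was the scarcest of these, with means of 88.1 and 36.1.

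*Snap25*, the neuronal SNARE that contributes a pair of helices to the complex, had means of 112526 (EC) and 88658 (PVC). This was 1.46-fold higher in the PVC after centring, within the limit of 1.5-fold and at the 5.84th percentile of all genes. Set against its partner *Vamp2*, *Snap25* was 1.52-fold higher in the PVC. The partner *Stx1a* lay on the same side as *Snap25*, 1.37-fold higher in the PVC after centring. *Snap29*, which serves autophagosome and endosome fusion, had means of 1501 and 735 and a centred ratio of 0.14.

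The 14 measured syntaxins ran from −0.45 to 0.11. None was past 1.5-fold, a count near the background of 12.2% of all genes. The neuronal *Stx1a*, the partner of *Snap25* and *Vamp2*, had means of 12284 (EC) and 9054 (PVC). Its centred log2 ratio was −0.45, on the PVC side. *Stx3* and *Stx4a*, of plasma membrane fusion in many cell types, had values of −0.27 and −0.37, and *Stx2* one of 0.06. The 8 syntaxins of internal membranes had a median of −0.03. *Stx12*, an endosomal form, was the highest of these per kb in both regions, at 2155 and 1104 normalized counts per kb, and *Stx6*, of the trans-Golgi network, had the lowest ratio of the group at −0.41.

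The fast calcium sensors included the member with the lowest ratio of all, *Syt2*. *Syt1*, the sensor of most forebrain synapses, had means of 90910 (EC) and 57837 (PVC), a centred log2 ratio of −0.24. *Syt2*, the sensor of fast-spiking interneurons and of hindbrain synapses, had means of 1219 (EC) and 2780 (PVC). Like *Vamp1* it was higher in the PVC before centring, and after it the difference was 4.23-fold, at the 0.230th percentile of all genes. *Syt9*, the third fast sensor, had means of 892 and 298, 1.61-fold higher in the EC. Per kb of exon, *Syt1* was 61.5 times *Syt2* in the EC and 17.2 times in the PVC. Within the sum of all 3 genes, *Syt2* had 1.57% (EC) and 5.45% (PVC), and *Syt9* had 1.98% (EC) and 1.01% (PVC). With coding length *Syt2* was above *Syt9* in both regions, so their order in the EC rests on the length used. *Pvalb*, which marks fast-spiking interneurons, had means of 696 (EC) and 1216 (PVC), 3.24-fold higher in the PVC after centring. Over the whole GABAergic list 3 of 7 markers were past 1.5-fold, all higher in the PVC. *Gad1* and *Gad2*, the enzymes that make GABA, were not, at −0.32 and −0.06. Also within the limit were *Kcnc1* at −0.35 and, on the EC side, *Sst* at 0.33, with means of 8259 (EC) and 3538 (PVC). The part of these markers in the *Syt2* and *Vamp1* values was not tested.

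**Figure D3:**
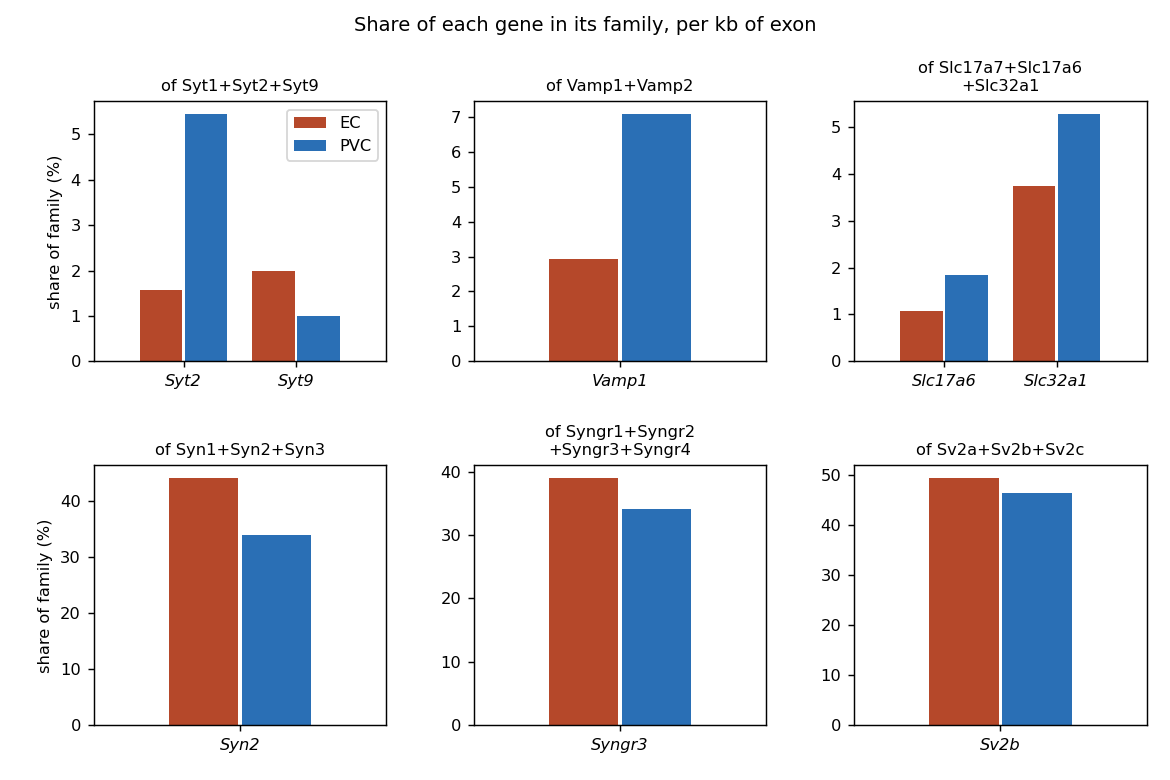
Share of named genes in the sum of the genes given above each panel, in percent per kb of exon, for the EC and the PVC. Bars are pooled means of 29 libraries without an error, and each panel has its own axis from 0. *Syt2* took 5.45% (PVC) and 1.57% (EC) of the sum of *Syt1*, *Syt2* and *Syt9*. *Vamp1* took 7.08% (PVC) and 2.92% (EC) of the sum of *Vamp1* and *Vamp2*, while *Sv2b* had 46.3% (PVC) and 49.4% (EC) of the SV2 sum.

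The other synaptotagmins that bind calcium held genes both within and past 1.5-fold. *Syt7*, a slow sensor of asynchronous release, had means of 26889 and 13245, and *Syt5* had means of 8164 and 3764, with centred ratios of 0.13 and 0.22. *Syt3* lay at −0.03. *Syt10*, known from the secretion of IGF-1 in the olfactory bulb, had means of 1303 (EC) and 192 (PVC), 3.66-fold higher in the EC and at percentile 99.5 of all gene ratios. *Syt6* had means of 474 (EC) and 544 (PVC), 2.13-fold higher in the PVC, and 8.73% of its exon bases are shared with a pseudogene on the opposite strand. Per kb, *Syt3* was 1.22 times *Syt10* in the EC and 4.57 times in the PVC, or 1.84 and 6.88 times with coding length.

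Of the remaining synaptotagmins, *Syt11*, which does not bind calcium and is among the highest members per kb, had means of 41461 and 22629 and a ratio of −0.02. *Syt13*, *Syt4* and *Syt16* lay at −0.35, −0.20 and 0.06. *Syt17* had means of 2740 (EC) and 792 (PVC), 1.86-fold higher in the EC. *Syt12* had means of 911 (EC) and 932 (PVC), 1.90-fold higher in the PVC, and shares 17.2% of its exon bases with an antisense gene. *Syt14* and *Syt15* were scarcer and within 1.5-fold, at 0.24 and 0.23. The hippocampal list had 2 of 4 measured markers past 1.5-fold, both higher in the EC, with a summed level over its 6 genes of 3528 (EC) and 685 (PVC), and its part in the EC values of *Syt10*, *Syt17*, *Syt9* and *Syn2* was not tested.

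Of 67 other genes of the vesicle cycle, 65 had a mean of at least 10 in both regions, with a median centred ratio of −0.03. Past 1.5-fold were 2 genes higher in the EC and 3 higher in the PVC (7.69% of the 65), beside 12.2% of all genes. With a minimum mean of 100 the share of all genes was 8.35%, so the count is near the background. *Doc2b*, a calcium sensor of spontaneous release, had means of 2774 (EC) and 618 (PVC), 2.42-fold higher in the EC. *Rab3c*, a vesicle GTPase, had means of 45641 and 12708, 1.93-fold higher in the EC. In the PVC, *Rph3a*, a Rab3 effector, was 1.67-fold, *Stxbp6*, a syntaxin-binding protein, 1.95-fold and *Slc17a8* (VGLUT3) 2.32-fold higher after centring, the last at means of 72.3 and 90.2. By list, these were 4 of 32 partners of the release machinery and 1 of 9 other transporters and physins. None of the 12 genes of vesicle retrieval and none of the 12 other intracellular SNAREs was past 1.5-fold, and at 12.2% of all genes these counts too are near the background.

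**Figure D4:**
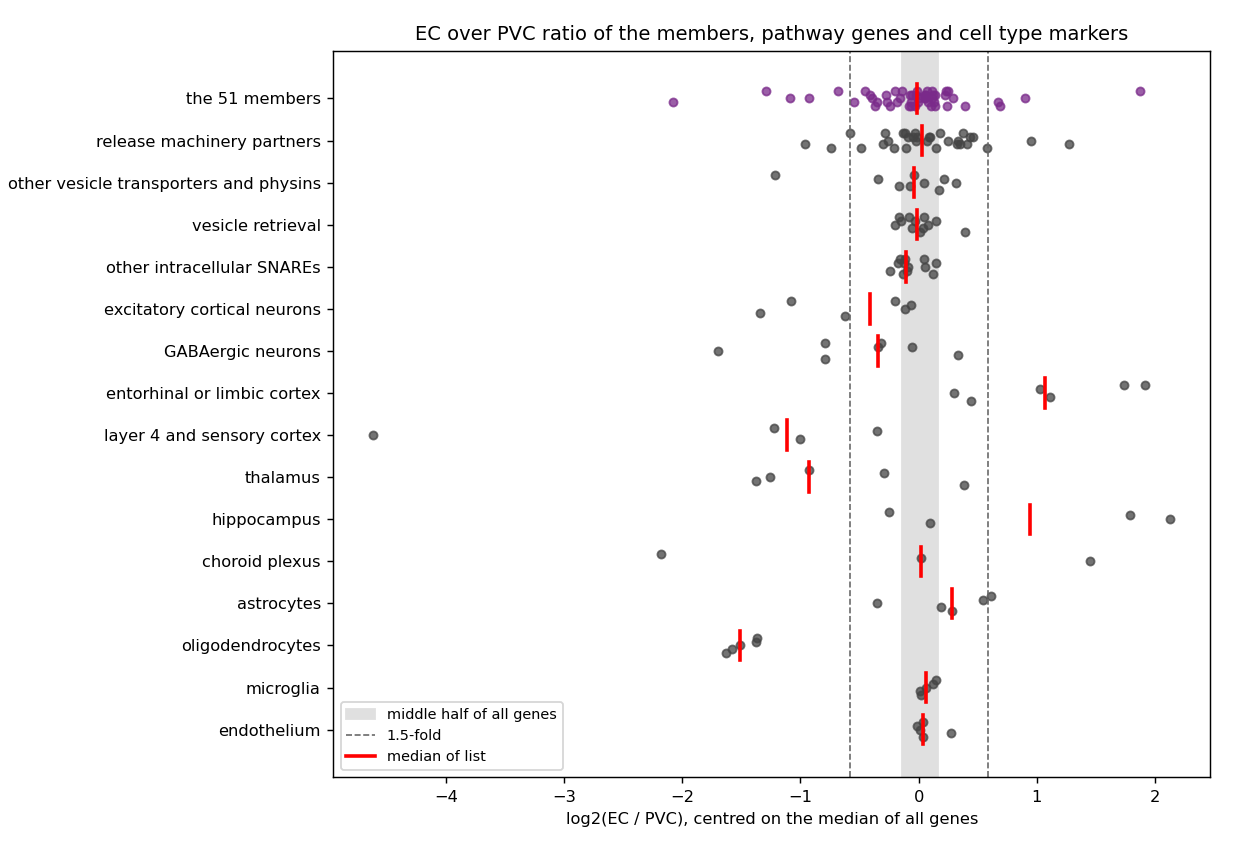
Centred log2 EC over PVC ratio of each gene, for the members, the other vesicle cycle lists and the cell type markers, with a red line at each list's median, dashed lines at 1.5-fold and a grey band for the middle 50% of all genes. The members' median of −0.02 lies in the band, the 5 oligodendrocyte markers all lie at −1.37 or below, and the limbic cortex markers have a median of 1.07.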

How the data were processed

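RNA-sequencing libraries of the EC and PVC were grouped by the region and genotype in their labels. The authors aligned single-end reads to mm9 with Tophat (2.0.6) and Bowtie (2.0.2.0), counted reads per gene with HT-SEQ, and scaled them with DESeq2 (1.10.1). The annotation is stated to hold protein coding genes, but the tables also list non-coding genes. The authors made the signal values, deposited in 1 table per region, by dividing counts by size factors and averaging over the libraries of both genotypes. No values of single mice were used. The values of 1 member are not reported here, although it is part of the counts and medians. The other columns hold the genotype comparison by the authors (log2 fold change, standard error, Wald statistic and p-values) and were not used here. The labels mark 7 libraries as sequenced more than once.

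EC over PVC log2 ratios of genes with a mean of at least 10 in both regions were centred on their median. A gene at 1.5-fold or more was counted as past the limit, with no test. Exon and coding lengths came from GENCODE vM1 on NCBIM37, by symbol, for 54 of 55 members and 90.2% of the genes compared. Promoters are RefSeq's (table build GRCm38.p6), with the NCBIM37 positions from an exact match. Values were computed in Python (3.11.15) with the packages pandas (2.3.3) and numpy (2.4.6), rank correlations with scipy (1.17.1), and figures with matplotlib (3.10.9). The ratio step was tested on simulated data. Members, roles, marker lists and the rule for naming genes were chosen with earlier results of these data known: set genes, the highest of each role, those past or nearest to 1.5-fold, and those under 10. The motifs, the pairs and shares of paralogs and the other members named were chosen after the values were seen. Alternatives were other scalings, minimum means, a pseudocount of 1, a limit of 2-fold and coding length. As no spread was at hand, a log2 ratio was taken to move at 0.1 and a count or level at 1.5 times.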

Additional observations from a re-analysis of the deposited data

How the results depend on the processing

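Scaling by the total, by the median ratio of genes with a mean of at least 1000, no minimum mean, a minimum of 100 and a pseudocount of 1 each left 9 members past 1.5-fold, and these were the same genes, each with its direction. The share of all genes past that limit was 8.35% with a minimum of 100 and 26.3% with none. A limit of 2-fold gave 4 members. With the means as deposited, which keeps the excess of the EC table in every ratio, 41 members were past 1.5-fold, 40 higher in the EC (88.3% of all genes) and 1, *Syt2*, higher in the PVC. The members' median was then 0.87, and *Slc17a6* turned from −0.68 to 0.21. The median level of the members per kb was moved by coding length from 841 to 2167 (EC) and from 509 to 1410 (PVC), as coding sequences are shorter than exons, and 9 of the 10 highest EC members and 8 of 10 in the PVC stayed. No paired analysis was possible because the values used are pooled means per region. Leaving out a library was not possible either, and without values of single mice the precision of every ratio is unknown.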
